A study of Mus musculus with 13 samples.

Results

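The 5 libraries labelled control, of 13 in the series, were described on their own as the baseline transcriptome of non-lesioned CA1 tissue. All 55291 gene symbols of the count tables were read in these 5 libraries, and no library of a lesioned culture entered any step. Each library came from 1 CA1 region, taken with a scalpel from 1 entorhino-hippocampal slice culture of a wildtype C57BL/6 mouse. Slices were prepared at postnatal day 4 to 5 from animals of either sex and were cultured for at least 18 days, with no lesion. By the headings of the count columns, controls 1 and 2 were male and controls 3 to 5 female. A slice culture keeps the local cells and connections of the hippocampus and entorhinal cortex, but it has no blood flow and no input from the rest of the brain. RNA with a polyA tail was read in bulk by paired-end sequencing of 150 bp, after 12 PCR cycles of cDNA and 10 of the library.

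CA1 is the output field of the hippocampus proper. Its pyramidal neurons release glutamate, receive input from CA3 and from the entorhinal cortex, and are held in check by interneurons that release GABA. Fast excitation runs through AMPA and NMDA receptors, fast inhibition through GABA-A receptors, and sodium, calcium and potassium channels shape how the neurons fire. Astrocytes clear glutamate and potassium, oligodendrocytes form myelin, and microglia are the resident immune cells.

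Levels within 1 gene are given as CPM (counts scaled to a common library total), and levels of different genes are compared per length only, as TPM (counts divided by exon length before scaling). Values of single libraries are listed in the order of controls 1 to 5, errors are SD with n = 5, and the coefficient of variation (CV) is the SD divided by the mean. Total counts were 18225356, 18764921, 14371152, 21092612 and 15929324. A level of 10 CPM carried a counting CV of 0.0834 in the smallest library, and a count of 0 allowed at most 0.142 to 0.209 CPM. Both mates of a pair were apparently counted, and with counts divided by 2 these limits were 0.118 and 0.284 to 0.418 CPM. They cover counting error only.

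At least 1 CPM was reached by 18289, 17512, 19765, 18883 and 17039 genes, and by 14747 genes in every control, which is 26.7% of all symbols. Among protein-coding genes the share was 57.1% (12288 of 21534). A mean of at least 10 CPM was found for 9966 genes, of at least 100 CPM for 2121 and of at least 1000 CPM for 67. The median level of the detected protein-coding genes was 13.9 TPM, and 90% of them lay below 93.2 TPM. Of the genes chosen for description, those of channels reached 1 CPM in every control for 83 of 108, those of receptors for 98 of 147, and cell type markers for 177 of 241. The median CV of these genes was 0.203, 0.284 and 0.278, beside 0.281 over all genes with a mean of at least 1 CPM. These groups were not matched for level. Over all genes the median CV was 0.451 at 1 to 10 CPM and 0.134 at 100 to 1000 CPM.

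The controls resembled each other closely, with 1 library somewhat apart. Pearson correlations of log2(CPM + 1) between pairs of libraries ran from 0.937 to 0.979, and every pair with control 4 lay at 0.954 or below. The median CV was 0.281 over the 18396 genes with a mean of at least 1 CPM, 0.190 from 10 CPM and 0.135 from 100 CPM. The biological coefficient of variation, the spread that edgeR estimated beyond counting error, was 0.372 over the same 18396 genes. It was 0.315 without control 4 and 0.324 with counts divided by 2. As a common value for all genes, it cannot be set against the median CV. The median over genes of the DESeq2 gene-wise estimate was 0.263. Control 4 differed more than 2-fold from the median of the other 4 libraries at 9.38% of the genes with at least 10 CPM, of which 796 were lower and 139 higher. In the other controls this share was between 0.421% and 2.699%. No batch is given for these libraries.

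The GC content of a transcript went with the deviation of the libraries, least in control 1 (rank correlation -0.116). Among the 232 genes with at least 60% GC, the median log2 deviation from the other 4 libraries was -0.06, 0.37, 0.50, -0.66 and -0.29. Among the 796 genes with less than 40% GC it was 0.07, -0.10, -0.13, 0.11 and 0.07. Controls 2 and 3 were thus high and controls 4 and 5 low at GC-rich transcripts. The median CV was 0.171 in the lowest and 0.294 in the highest GC class. The GC content is given beside some of the genes whose levels follow this order. Other genes named follow it too. Merged exon length went with the deviation as well. Among the 882 genes of 1 to 2 kb the median log2 deviation was 0.07, 0.18, 0.12, -0.33 and -0.13. Among the 2240 genes of 8 kb or more it lay between -0.02 and 0.06. The part of GC content or length in the spread of any gene was not tested.

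**Figure D1:**
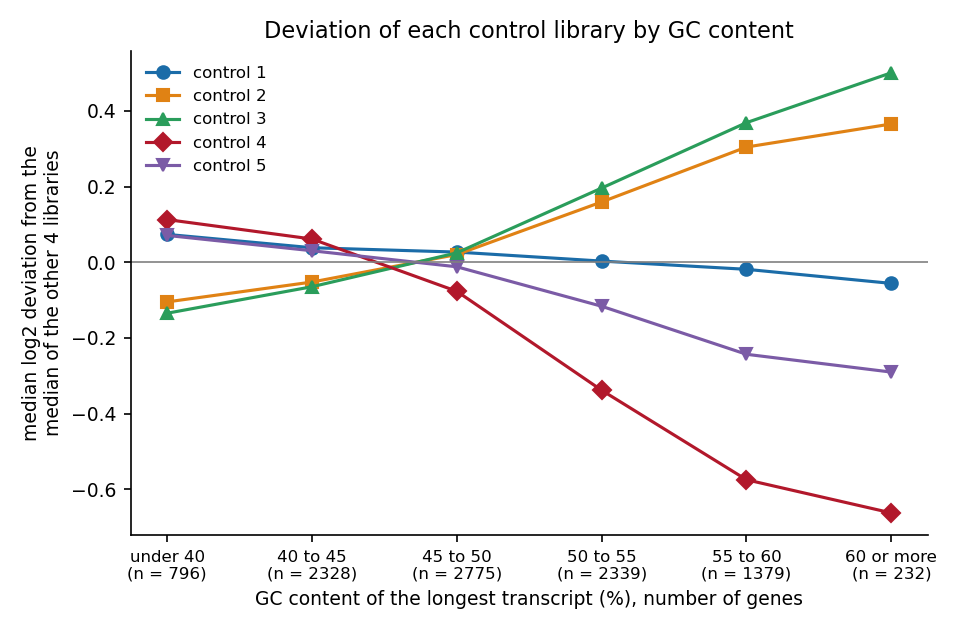
Median log2 deviation of each control library (y axis) from the median of the other 4 libraries, over genes with a mean of at least 10 CPM grouped by the GC content of their longest transcript (x axis, percent, with the number of genes). Lines and symbols stand for controls 1 to 5; at 60% GC or more, control 3 lies at 0.50 and control 4 at -0.66, while the 5 libraries lie between -0.13 and 0.11 below 40% GC.

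The label CA1 was checked against marker genes of the hippocampal fields, because the extraction text of the labels speaks of the dentate gyrus while titles and source names say CA1. Fibcd1, a marker of CA1 pyramidal neurons (GRCm38, chr2:31813290-31846005), was found at 82.4, 68.6, 106, 63.1 and 79.3 CPM. The granule cell transcription factor Prox1 was found at 13.6, 18.7, 20.5, 13.9 and 12.3 CPM. Fibcd1 was higher than Prox1 per length in all 5 libraries, with a log2 ratio of 3.16 ± 0.33. Among the other granule cell markers, C1ql3 lay at 10.7 ± 2.62, Trpc6 at 6.64 ± 1.39, Glis3 at 2.29 ± 0.736 and Tdo2 at 1.802 ± 0.272 TPM. The remaining members had means under 1 CPM, with C1ql2 at no more than 1.71 CPM (CV 1.76), Dsp at no more than 1.33 CPM and Lct at no more than 0.377 CPM. Summed in TPM, the 6 CA1 genes gave 184 and the 8 dentate genes 27.2. By this pair of genes and by these sums, the levels went with the titles rather than with the extraction text. Such sums depend on which genes are listed, so they cannot settle by themselves which field was taken.

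All 6 CA1 markers were at 1 CPM or more in every control. Their summed level was 381, 336, 391, 326 and 391 CPM, with a CV of 0.0863. Mpped1 was found at 126, 128, 122, 72.96 and 139.7 CPM, the transcription factor Pou3f1 at 45.5 ± 11.7 CPM and Man1a, a mannosidase of the Golgi, at 103 ± 22.4 CPM. Mpped1 was lowest in control 4, in which Man1a was highest. Wfs1 was weaker than these per length, at 6.62 ± 2.09 TPM.

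Markers of the neighbouring fields were present as well, and some of them were above members of the CA1 list. The CA3 marker Grik4, a kainate receptor subunit, lay at 6.53, 8.21, 8.28, 3.46 and 5.08 CPM, and Wfs1 exceeded it per length in 5 of 5 libraries by a log2 ratio of 1.28 ± 0.80. Other members of the CA3 list were above Wfs1 in mean TPM, with Bok at 18.3 ± 6.97, Socs2 at 12.5 ± 3.22 and Nectin3 at 12.1 ± 1.96 TPM. Iyd stayed at or below 0.853 CPM. Of the CA3 list 6 of 8 genes and of the dentate list 5 of 8 genes were at 1 CPM or more in every control. The CA2 list was the most variable of the field lists, with sums of 75.7, 115, 84.4, 48.1 and 53.4 CPM. Its member Amigo2, an adhesion molecule with 48.1% GC, was found at 10.3, 12.6, 13.4, 1.23 and 1.88 CPM, and Rgs14, a regulator of G protein signalling, at 5.71, 10.1, 9.32, 1.61 and 5.78 CPM. Both were lowest in control 4. The sum of the CA2 list was highest in control 2. The calmodulin-binding peptide Pcp4 was found at 23.7, 46.7, 29.2, 23.5 and 22.2 CPM, and its mean of 73.5 ± 24.1 TPM was above that of Mpped1, at 71.5 ± 16.1 TPM, which led the CA1 list. All 9 genes of the cortical and subicular list were detected, with a sum of 503 ± 37.3 CPM, and were led by the matrix protein Fn1 at 48.1 ± 8.92 TPM, which many cell types make, and by Etv1 at 27.2 ± 5.58 TPM. In bulk tissue, fewer cells of a type and less RNA per cell cannot be told apart.

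**Figure D2:**
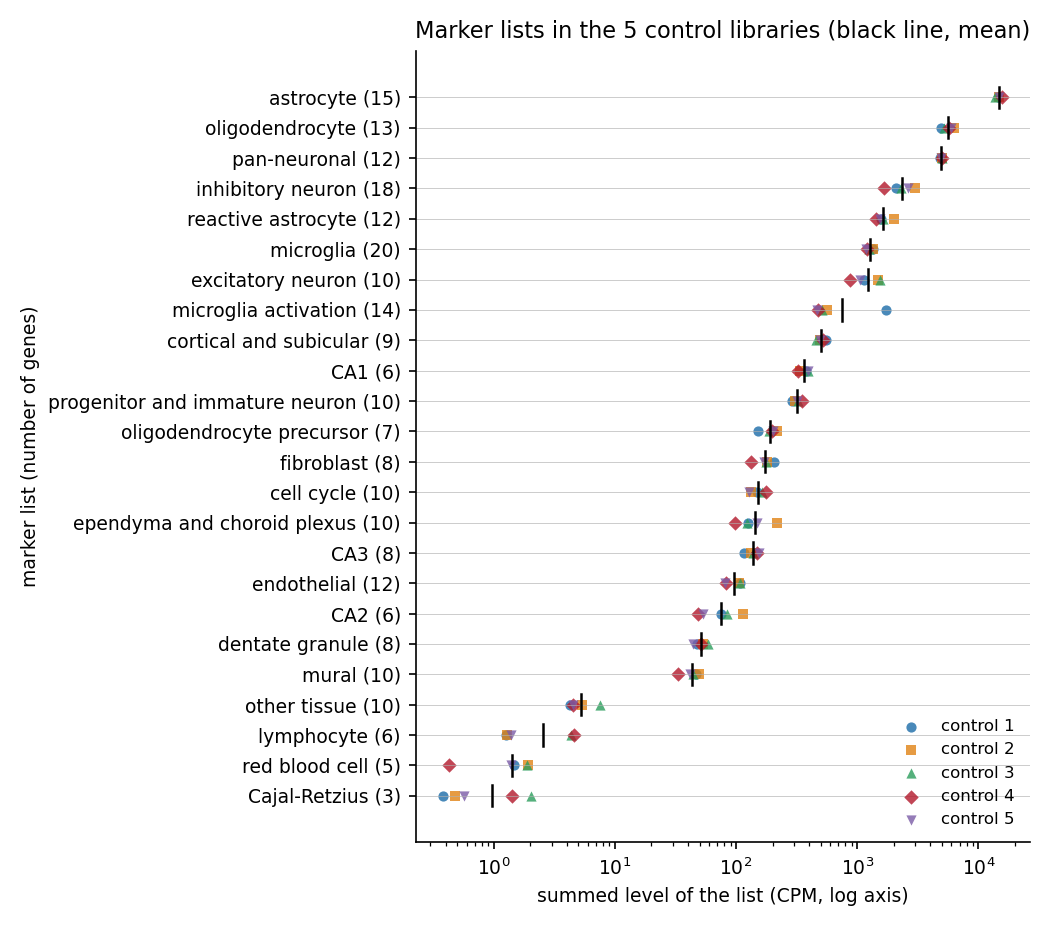
Summed level (x axis, CPM on a log axis) of each cell type marker list (y axis, with its number of genes) in the 5 control libraries, shown by symbol, with the mean as a black line. The astrocyte list is highest at 14676 ± 728 CPM, pan-neuronal sums lie within 4851 to 5014 CPM, and the lists of blood cells, lymphocytes and other tissues stay below 8 CPM.

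Genes common to all neurons were among the steadiest lists. The 12 pan-neuronal genes summed to 4851, 4963, 5014, 5009.8 and 4885 CPM, a CV of 0.0149. Single members moved more than the sum. Uchl1, an abundant neuronal deubiquitinase with 56.8% GC, lay at 426, 521, 539.6, 257 and 374 CPM, while Snap25, a membrane fusion protein of the synapse with 38.7% GC, lay at 1651, 1463, 1376, 1996 and 1527 CPM. Control 4 was lowest for the first and highest for the second. Per length, Uchl1 at 674 ± 167 TPM was above Snap25 at 617 ± 103 TPM in 4 of 5 libraries.

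Markers of excitatory neurons varied more, and with the GC order of the libraries. Their list summed to 1139, 1475, 1551, 867 and 1046 CPM. The vesicular glutamate transporter Slc17a7 (56.6% GC) was found at 46.3, 65.2, 86.3, 13.8 and 32.4 CPM, and the neurogranin gene Nrgn (58.6% GC) at 271, 322, 383, 131 and 203 CPM. Controls 3 and 2 were high and control 4 was low for both. The transcription factor Neurod6 (41.9% GC), also made by pyramidal neurons, showed no such order, with 121, 135, 143, 142 and 112 CPM and a CV of 0.104.

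Interneuron genes were prominent in the cultures. All 18 genes of the inhibitory list were at 1 CPM or more in every control. Gad1, an enzyme that makes GABA, was steady at 280.2, 332, 293, 317 and 319 CPM (CV 0.0688). The neuropeptide somatostatin, Sst, was found at 779, 1209, 871, 437 and 1121 CPM and at 3195 ± 1106 TPM was among the 15 highest nuclear protein-coding genes per length. Npy, which encodes neuropeptide Y, followed with 387, 659, 367, 268 and 547 CPM. Both peptides were high in controls 2 and 5 and lowest in control 4. Pvalb, the calcium buffer of fast-spiking interneurons, was found at 129, 219, 169, 109 and 105 CPM, with 49.3% GC. Slc17a7 was lower than Gad1 per length in 5 of 5 libraries, with a log2 ratio of -2.40 ± 1.06. That ratio joins a gene of 56.6% GC with one of 47.3% GC.

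The remaining interneuron markers were lower. Vip, a peptide of interneurons that inhibit other interneurons, was found at 44.9 ± 5.85 CPM. Reln, the secreted protein reelin, was the steadiest member at 27.3, 25.8, 27.8, 27.3 and 29.6 CPM. Ndnf, a marker of neurogliaform interneurons, was the most variable at 26.6, 8.58, 29.99, 20.6 and 6.403 CPM. Controls 2 and 5 were the low libraries for Ndnf and the high ones for Sst.

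Neuropeptide genes followed, of which 12 of 15 reached 1 CPM in every control. After Sst and Npy came Cck, which encodes cholecystokinin, at 228, 215, 313, 196 and 209.6 CPM, with control 3 above the other 4. Proenkephalin, Penk, and the substance P precursor Tac1 lay at 15.2 ± 4.24 and 25.5 ± 10.4 CPM. Corticotropin-releasing hormone, Crh, ranged from 0.126 to 2.304 CPM, and Adcyap1 from 0.32 to 0.768 CPM.

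Astrocyte genes gave the largest sum of the cell type lists. The 15 genes summed to 14428, 14901, 13628, 15621 and 14805 CPM, with a CV of 0.0496. Apolipoprotein E, Apoe, led per length at 2056 ± 489 TPM, followed by clusterin, Clu, at 1230.3 ± 264 TPM and by the glutamate transporter Slc1a3 at 1185 ± 355 TPM. Slc1a3 was found at 3717, 3064, 2730.4, 5395 and 4359 CPM and the second glutamate transporter Slc1a2 at 2501, 2347, 2301, 2859 and 2601 CPM. Gfap, the intermediate filament of astrocytes, was found at 1842, 2096, 1929, 1519 and 1779 CPM. Gja1, the gap junction protein connexin 43, varied most, with 453, 321, 231, 803 and 517 CPM, lowest in control 3 and highest in control 4. Its transcript has 42.2% GC.

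Genes associated with reactive astrocytes were all detected (12 of 12). Vimentin, Vim, dominated this list at 967, 1280.2, 1101, 1032 and 1044 CPM. Lcn2, a secreted protein of inflammation with 54.4% GC, was found at 71.5, 119, 94.4, 48.9 and 48.3 CPM, and complement C3 at 49.5, 46.5, 43.9, 42.1 and 27.7 CPM. The chemokine Cxcl10 was the most variable of the list, at 25.2, 19.3, 7.098, 1.09 and 2.45 CPM. It was highest in controls 1 and 2, the male libraries, and a part of sex was not tested.

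Myelin genes were present in every control. The 13 oligodendrocyte genes summed to 4949.6, 6237, 5231, 5732 and 5941 CPM. Claudin 11, Cldn11, which forms the tight junctions of myelin, stood at 361, 417, 312, 362 and 389 CPM. Myelin basic protein, Mbp (51.03% GC), was found at 561, 933, 662, 319.6 and 447 CPM. Mbp was highest in control 2 and lowest in control 4. Of the precursor list 6 of 7 genes were detected. Its receptor Pdgfra lay at 32.8, 31.02, 21.2, 37.9 and 35.4 CPM, and Bcas1, a gene of cells that begin to myelinate, at 86.4, 135, 131, 129 and 131 CPM with control 1 below the other 4.

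All 20 microglia genes were at 1 CPM or more in every control. Together they gave 1353, 1351, 1241, 1208 and 1183 CPM, with a CV of 0.0632. The lysosomal protease cathepsin S, Ctss, was the highest of them per length at 939.6 ± 97.97 TPM, with 506, 471, 435, 544 and 485 CPM. Complement C1qb was found at 131, 145, 132, 94.96 and 118 CPM. C1qa, its partner in the C1q complex, showed a far wider spread at 19.8, 31.97, 27.6, 3.03 and 5.84 CPM. Its transcript has 59.5% GC, and its low libraries were controls 4 and 5. Genes read as markers of resting microglia were low but present: P2ry12, a purine receptor, lay at 11.9, 21.05, 18.5, 24.9 and 15.4 CPM and Tmem119 at 7.68, 13.4, 10.7, 5.59 and 10.7 CPM.

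The summed level of activated microglia genes set control 1 apart, mostly through a single gene. The 14 genes of the activation list summed to 1737, 568, 511, 475 and 465 CPM. Osteopontin, Spp1 (GRCm38, chr5:104435118-104441050), made most of this difference with 1196, 206, 142, 143 and 117 CPM. Without control 1, the mean sum of the list was 505 CPM instead of 751. Lyz2, lysozyme of myeloid cells, was found at 582, 216, 137, 128 and 128 CPM, the protease Mmp12 at 37.1, 1.55, 8.98, 2.89 and 3.77 CPM and the chemokine Ccl6 at 56.6, 17.9, 7.86, 9.81 and 15.1 CPM. Control 1 was the highest library for all 4 genes, and their transcripts have between 40.3% and 48.3% GC. Lyz2, Mmp12 and Ccl6 are not in the list and were named for their large CV in these libraries. The microglia list as a whole varied far less, from 1183 to 1353 CPM. Cytokines stayed low, with Tnf at 0.329, 0.639, 4.04, 0.142 and 2.89, Il1b at 0.658, 2.56, 0.905, 1.85 and 3.39 and Il1a at 0.439, 0.639, 0.278, 0.19 and 1.13 CPM. These cytokines belong to the activation list, and none of them was highest in control 1.

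**Figure D3:**
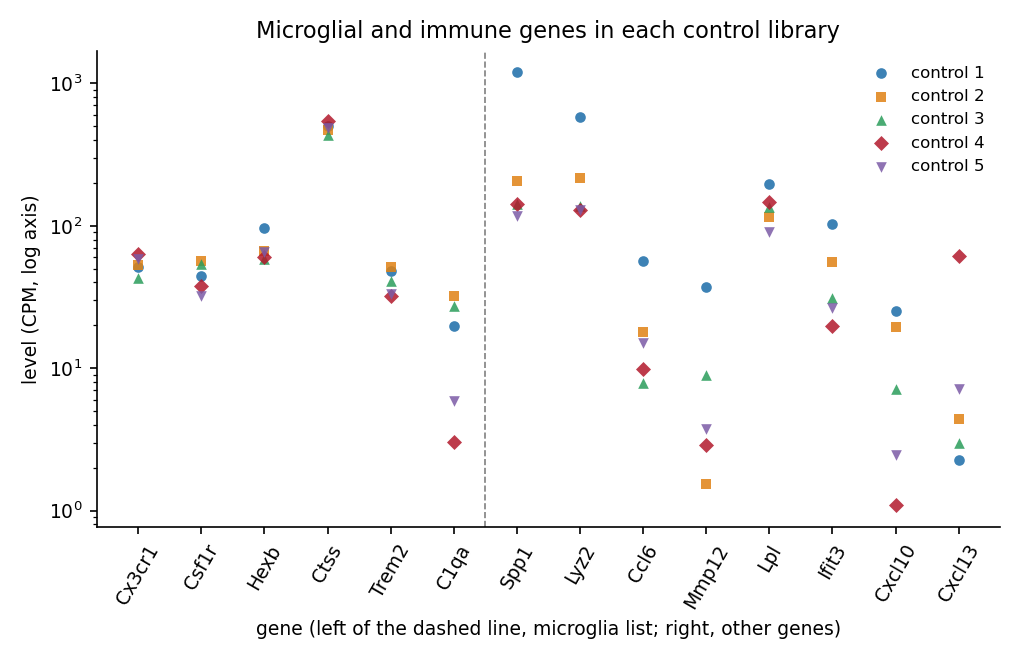
Level (y axis, CPM on a log axis) of microglial and immune genes (x axis) in the 5 control libraries, shown by symbol, with microglia markers left of the dashed line. Spp1, Lyz2, Ccl6 and Mmp12 are highest in control 1, Cxcl13 is highest in control 4, and the microglia markers plotted other than C1qa vary less between libraries than these 5.

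Genes of vessel cells were detected in part. Of the endothelial list 5 of 12 genes were at 1 CPM or more in every control. The highest was the glucose transporter Slc2a1 at 33.3 ± 7.996 TPM, which astrocytes also make. Itm2a at 18.7 ± 6.405 CPM and the receptor gene Flt1 at 19.9 ± 2.08 CPM were present as well. The junction and adhesion genes of endothelium were near 0: Cldn5 at 0.439, 0.16, 0.139, 0.474 and 0.251 CPM, Pecam1 at 0.418 to 1.26 CPM and Cdh5 at 0.373 to 1.37 CPM. Of the mural list 3 of 10 genes reached the level, namely Rgs5 at 16.7 ± 4.14, the myosin light chain gene Myl9 at 13.8 ± 4.12 and the receptor gene Pdgfrb at 7.22 ± 1.76 CPM. Acta2 and Tagln, also contractile genes, were at no more than 1.12 and 0.139 CPM. Of the fibroblast list 4 of 8 did, and its sum was carried by Ptgds at 87.5, 147, 89.6, 60.97 and 82.4 CPM and decorin, Dcn, at 109, 29.04, 74.3, 53.9 and 76.7 CPM. The collagen gene Col1a1 ranged from 0.768 to 3.22 CPM.

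The list of ependyma and choroid plexus was highest in control 2, with sums of 126, 219, 124, 97.7 and 148 CPM. Tmem212, a gene of ependymal cells, was found at 26.1, 64.2, 20.8, 5.07 and 30.3 CPM, and Ccdc153 at 8.45, 24.2, 11.3, 10.7 and 7.41 CPM. Transthyretin, Ttr, the main product of the choroid plexus, stayed at or below 0.835 CPM. No gene of the red blood cell, lymphocyte, Cajal-Retzius or other-tissue lists reached 1 CPM in every control. Their sums ranged from 0.427 to 1.92, 1.26 to 4.55, 0.384 to 2.02 and 4.22 to 7.52 CPM, and Prm1 and Prm2, which package sperm DNA, had no count in any control.

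Transcripts of dividing cells were low, apart from Pcna, which also acts in DNA repair, at 89.9 ± 4.304 CPM. Mki67, made in proliferating cells, was found at 9.38, 8.53, 18.2, 13.9 and 7.596 CPM and Top2a, the topoisomerase of replication and mitosis, at 16.1, 11.2, 22.1, 34.3 and 15.8 CPM. The cell cycle list passed 1 CPM in every control for 7 of 10 genes. Among progenitor and immature neuron genes, Sox2, which astrocytes also make, was found at 79.4, 89.4, 95.7, 85.8 and 84.2 CPM and doublecortin, Dcx, of young neurons at 27.1, 21.3, 21.1, 28.97 and 27.4 CPM. Eomes, made by intermediate progenitors, stayed at or below 0.664 CPM.

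The AMPA receptor genes, whose products carry fast excitation, had a median CV of 0.136, beside 0.134 over all genes with a mean of 100 to 1000 CPM. All 4 were detected, and they summed to 2136, 2031, 2351, 2199 and 2167 CPM. Gria2 (GRCm38, chr3:80681450-80802835), the subunit that makes the channel impermeable to calcium once its transcript is edited, was found at 1390.3, 1249, 1392, 1376 and 1410.0 CPM. Gria1 was found at 471, 477, 664, 459 and 456 CPM, with control 3 above the other 4. Per length, Gria2 made 42.8% ± 2.79 and Gria1 40.6% ± 4.16 of the family, with Gria2 ahead in 4 of 5 libraries and a log2 ratio of Gria1 to Gria2 of -0.08 ± 0.23. With merged exon lengths these 2 did not differ beyond their spread, but the ratio was -0.54 with the longest transcript and -1.45 with no length scaling, both with Gria2 higher. Gria3 at 68.99 ± 7.22 TPM and Gria4 at 19.6 ± 5.43 TPM were below them with no overlap. Of the 12 auxiliary subunits, which set the trafficking and gating of AMPA receptors, 11 were detected, led by Cnih3 at 87.5 ± 9.97 TPM and Cnih2 at 59.6 ± 29.3 TPM. Cnih2 (62.3% GC) varied from 12.8 to 49.6 CPM and Cnih3 (53.3% GC) from 78.9 to 107 CPM. Cacng7 stayed below 1 CPM in every control.

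NMDA receptor genes showed a fixed order of their modulatory subunits. Grin2a was found at 284, 237, 277, 273 and 253 CPM and Grin2b at 222, 252, 262, 167 and 219 CPM. Per length, Grin2a was higher in 5 of 5 libraries, with a log2 ratio of Grin2b to Grin2a of -0.72 ± 0.30. Grin1, the subunit that every NMDA receptor needs, was listed far lower, at 12.5, 11.8, 16.6, 5.03 and 8.85 CPM and 2.93 ± 1.09 TPM. Its transcript has 59.4% GC, and it was lowest in control 4. Grin2d and Grin3b were at 0.62 ± 0.32 and 0.0738 ± 0.0433 TPM.

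Kainate receptor genes were all detected (7 of 7). The auxiliary subunits Neto1 and Neto2 led per length at 35.2 ± 7.77 and 31.1 ± 2.396 TPM. Grik5, at 29.9, 45.5, 57.8, 16.8 and 25.99 CPM with 61.7% GC, was the most variable, while Grik2 lay at 38.2, 37.7, 48.4, 37.03 and 30.2 CPM. Among metabotropic glutamate receptors, Grm5, which couples to phospholipase C in CA1, made 62.7% ± 1.03 of the family and was found at 429, 410.3, 466, 482 and 453 CPM (CV 0.0637). Grm3, which astrocytes also make, came next at 43.9 ± 6.97 TPM, and the ranges of the pair did not overlap. Grm2 and Grm6 had means of 0.432 and 0.0777 TPM.

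GABA-A receptor genes were led by the alpha 5 subunit. Gabra5, which forms extrasynaptic receptors in CA1, was found at 206, 193, 211, 181 and 204 CPM and made 34.02% ± 1.63 of the family per length. It was above every other subunit per length in 5 of 5 libraries without overlap. The beta subunit Gabrb1 lay at 42.1 ± 5.34 TPM, and the alpha subunits Gabra2, at 33.6 ± 7.04 TPM, and Gabra4, at 33.3 ± 3.32 TPM, overlapped. Of the 19 subunits 12 were detected in every control, and those of the rho, epsilon, pi and theta types stayed under a mean of 1 CPM.

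The metabotropic GABA-B receptor was present with both subunits, Gabbr1 at 175, 181, 200.4, 164 and 178 CPM and Gabbr2 at 72.2, 104, 103, 93.97 and 107 CPM. Its auxiliary subunit Kctd16 was found at 18.4, 15.9, 17.95, 5.74 and 15.004 CPM, with control 4 below the other 4. Of the glycine receptor genes, the beta subunit Glrb was found at 170.5, 162, 153, 167 and 178 CPM, the alpha subunit Glra2 at 13.7, 7.35, 10.6, 8.01 and 13.7 CPM, and Glra1 at or below 0.905 CPM. The chloride exporter Slc12a5, whose product keeps GABA inhibitory in mature neurons, was found at 121, 127, 153, 144 and 99.4 CPM and the importer Slc12a2 at 106, 122, 108, 125 and 120.4 CPM. Slc12a5 was higher per length in 5 of 5 libraries, with a log2 ratio of 0.69 ± 0.28. When the longest transcript set the length, this ratio was 0.25, and Slc12a2 was then the higher in control 5.

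**Figure D4:**
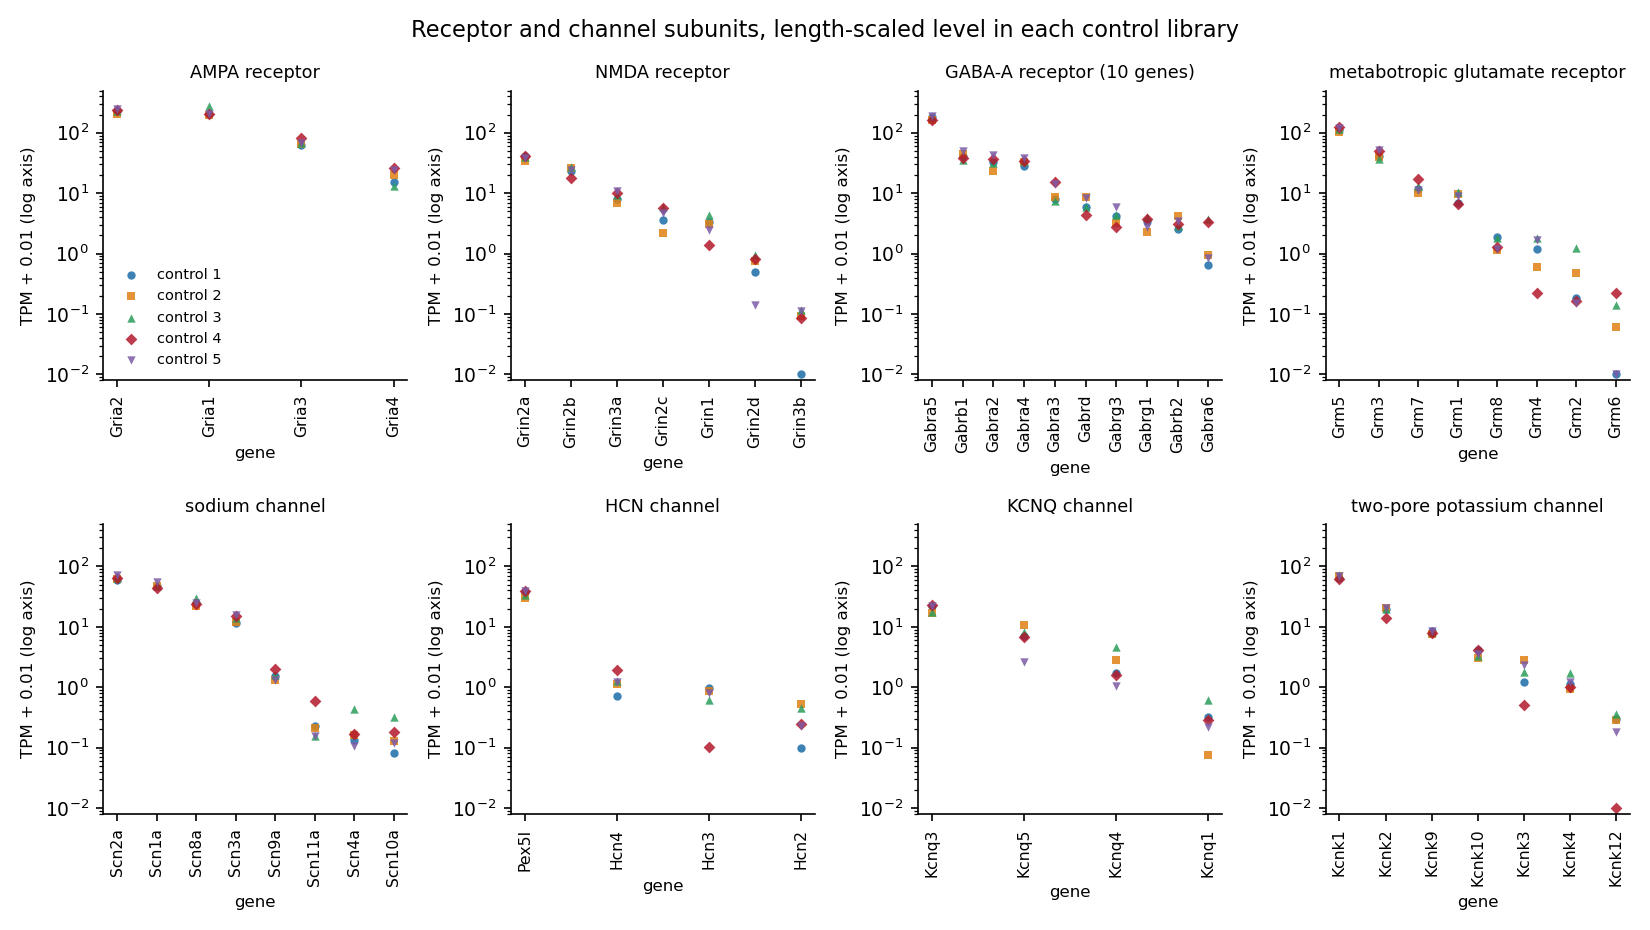
Length-scaled level (y axis, TPM + 0.01 on a log axis) of receptor and channel genes (x axis) by family, with 1 symbol for each control library. Gria2 and Gria1 overlap near 200 TPM, Gabra5 lies above the other GABA-A receptor genes plotted, and Kcnq3 above the other KCNQ genes plotted. Some members of these families are not plotted.

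Receptors for neuromodulators were mostly low, with 1 leading gene in several families. The muscarinic receptor Chrm1, which excites pyramidal neurons, was found at 44.3, 42.1, 53.02, 41.9 and 46.5 CPM. Chrm4 had 0 counts in all 5 libraries, which allows at most 0.142 CPM in the deepest, or 0.284 CPM with counts divided by 2. Among nicotinic receptor genes 4 of 9 were detected, and Chrna7 ranged from 0.616 to 1.81 CPM. All 5 dopamine receptor genes had means under 10 CPM, with Drd1 at 6.86, 6.18, 4.801, 4.03 and 7.28 CPM.

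Of 14 serotonin receptor genes 9 were detected, with Htr1b at 11.9 ± 4.16 TPM and Htr2c at 40.7, 26.97, 22.1, 49.1 and 24.7 CPM. The beta adrenergic receptor Adrb1 was found at 48.1, 55.8, 80.996, 67.99 and 69.9 CPM, lowest in control 1 and highest in control 3. Adora1, the inhibitory adenosine receptor, was found at 115, 139.6, 172, 104 and 115 CPM and Adora2a at 0.165 to 0.879 CPM. The cannabinoid receptor Cnr1 of interneuron terminals was found at 166, 149, 137, 158 and 198 CPM. Oprm1, the receptor of morphine, ranged from 0.533 to 4.14 CPM.

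Peptide receptor genes were low as a group, while among the peptide genes the transcripts of Sst, Npy and Cck were abundant. At 1 CPM or more in every control were 12 of 19 genes. Npy1r, a receptor of neuropeptide Y, was found at 26.3, 28.9, 29.2, 31.1 and 29.2 CPM (CV 0.0583). Ntsr2, a neurotensin receptor that astrocytes make, led per length at 33.5 ± 7.54 TPM, followed by Mchr1 at 24.04 ± 9.67 TPM. Sstr3, a somatostatin receptor, was found at 16.02, 14.5, 38.7, 32.2 and 44.1 CPM, lower in controls 1 and 2 than in the other 3. Controls 1 and 2 were the male libraries, and a part of sex was not tested. Sstr5 had no count in any control.

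Nuclear hormone receptor and neurotrophin receptor genes followed. The glucocorticoid receptor Nr3c1 was found at 149, 159, 131, 147 and 159 CPM and the mineralocorticoid receptor Nr3c2 at 51.4, 51.1, 72.02, 55.2 and 70.4 CPM. The oestrogen receptor Esr2 stayed at or below 0.664 CPM. The headings of the count columns named controls 1 and 2 as male and the other 3 as female, which the Y-linked gene Ddx3y bore out at 177, 143, 0.139, 0.0948 and 0.251 CPM. Ntrk2, the receptor of brain-derived neurotrophic factor, was found at 996, 997, 1083, 788 and 922 CPM, above Ntrk3 per length in every control, and Ngfr had a mean of 0.23 TPM.

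The main sodium channel genes kept the same order in every library. Scn2a, the channel of the early axon initial segment and of unmyelinated axons, was found at 289, 311, 319, 310.3 and 329.6 CPM (CV 0.0472). It made 41.9% ± 1.04 of the family per length. Scn1a, prominent in fast-spiking interneurons, followed at 47.95 ± 4.02 TPM, Scn8a, the channel of mature axons, at 24.96 ± 2.82 TPM and Scn3a at 13.6 ± 1.74 TPM. No neighbours among these 4 overlapped, and Scn2a exceeded Scn8a by a log2 ratio of 1.36 ± 0.17. The muscle and sensory neuron channels Scn4a, Scn10a and Scn11a had means under 1 CPM.

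Of the calcium channel pores, 8 of 10 were detected. Cacna1b, the N-type channel of terminals, was the steadiest at 62.4, 60.5, 59.8, 65.99 and 58.4 CPM, and it overlapped with the R-type gene Cacna1e at 14.7 ± 2.68 TPM and the P/Q-type gene Cacna1a at 12.5 ± 3.92 TPM against its own 16.1 ± 0.955 TPM. Cacna1a (58.4% GC) was found at 47.9, 60.01, 85.7, 38.4 and 44.3 CPM, highest in control 3 and lowest in control 4. All 8 auxiliary subunits were detected, led by Cacna2d1 at 39.9 ± 4.03 TPM.

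Among 20 voltage-gated potassium channel genes 16 were detected. Kcnd2, which carries the A-type current of pyramidal dendrites, led at 62.7 ± 4.37 TPM with 135, 120.3, 117, 127 and 119.5 CPM. The axonal channel Kcna1 came next at 46.95 ± 8.94 TPM and overlapped with it. Kcnc2, a channel of fast-spiking cells, was found at 80.2, 89.05, 59.2, 58.5 and 103 CPM. Of the channels of the M current, Kcnq3 was found at 124, 98.3, 101, 129 and 119.7 CPM and was above Kcnq5, at 7.04 ± 2.92 TPM, per length in 5 of 5 libraries without overlap.

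Potassium channels of other classes were led by single genes. Kcnma1, the large-conductance channel opened by calcium, was found at 217, 263, 216, 252 and 273 CPM and lay above the rest of its list in every control. Kcnj10, the inward rectifier with which astrocytes take up potassium, was found at 120.3, 193, 182, 166 and 180.1 CPM, with control 1 lowest. Kcnj3, a channel subunit opened by G proteins, overlapped with it per length. Of the two-pore channels that hold the resting potential, Kcnk1 was highest at 67.2 ± 3.32 TPM, and Kcnk9 was the steadiest at 39.5, 37.2, 39.2, 36.8 and 38.8 CPM (CV 0.0322).

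Of the HCN channels, which carry the hyperpolarization-activated current, Hcn2 was found at 0.11, 0.639, 0.557, 0.284 and 0.251 CPM, near the limit of detection, and its transcript has 65.4% GC. Pex5l, an auxiliary subunit of HCN channels, was found at 127, 105, 116, 131 and 128 CPM. Among TRPC channels Trpc4 was highest at 136, 96.5, 112, 185 and 199 CPM, with controls 4 and 5 above the other 3. Asic2, an acid-sensing channel, was found at 42.5, 40.02, 48.4, 27.3 and 38.4 CPM.

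Calm2 and Calm3 both encode calmodulin, the calcium sensor of synaptic plasticity, and Calm2 belonged to the most abundant transcripts of the cultures. They are shown in sequence because they encode the same protein and can be counted apart only where their bases differ. Calm2 (chr17:87433412-87446935, minus strand) and Calm3 (chr7:16915379-16924114, minus strand) each have 450 coding bases in GENCODE M21 on GRCm38. A stretch that ends at coding base 267 is written 5′ to 3′ in the direction of transcription, with capitals where the pair differs.
Calm2: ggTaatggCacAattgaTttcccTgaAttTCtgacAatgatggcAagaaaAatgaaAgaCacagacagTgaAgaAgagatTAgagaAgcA
Calm3: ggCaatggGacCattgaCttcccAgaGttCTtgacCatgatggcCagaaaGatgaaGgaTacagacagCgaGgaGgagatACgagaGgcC

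Over the whole coding sequence 78 of the 450 bases differed between Calm2 and Calm3, of which 74 were at the third position of a codon, and coding identity was 82.7%. The longest run of identical coding bases at the same position had 17 bases, which is shorter than a read of 150 bp. Of all 100-base stretches of their transcripts, 99.1% in Calm2 and 99.9% in Calm3 occurred in no transcript of another gene.

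Both genes differed in level and in how they varied. Calm2 was found at 4428, 3386, 2585, 3722 and 4312 CPM and Calm3 (58.3% GC) at 758, 892, 952, 561 and 670.3 CPM. Calm2 was lowest in control 3, in which Calm3 was highest, and Calm3 was lowest in control 4. Per length, Calm2 stood at 6585 ± 1483 TPM and Calm3 at 822 ± 149 TPM, without overlap.

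All genes of the list of calmodulin, its partners and its kinases were detected (13 of 13). Camk2a, the alpha subunit of the calmodulin kinase of synaptic plasticity, was found at 167, 204, 276, 106 and 132 CPM and Camk2b, the beta subunit, at 250.1, 334, 404, 179 and 206 CPM. Their ratio was nearly constant, with a log2 value of -0.36 ± 0.09, the smallest SD of the 9 ratios computed, and Camk2b ahead in 5 of 5 libraries. Both were highest in control 3 and lowest in control 4, and have 53.3% and 53.9% GC. Ppp3ca, the catalytic subunit of the phosphatase calcineurin, was found at 2294, 2150.5, 2555, 3177 and 2606 CPM. Gap43, a calmodulin-binding protein of growing axons, was found at 602, 471, 472, 564 and 968 CPM, with control 5 above the other 4.

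Genes of the release machinery were all detected (14 of 14), with a summed level of 4114 ± 359 CPM. Synaptotagmin 1, Syt1, the calcium sensor of release, was found at 753, 932, 839.8, 603 and 735 CPM. Vamp2, the vesicle fusion protein, varied from 99.2 to 331 CPM and Sv2b, a vesicle glycoprotein, only from 123 to 148 CPM. Vamp2 has 53.2% and Sv2b 46.8% GC. Stx1a was lowest of the list at 6.16 ± 4.11 TPM.

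Scaffolds of the postsynaptic density were likewise all present (16 of 16). Dlgap1 led at 93.004 ± 11.6 TPM and 607, 527, 715, 663 and 673 CPM. Dlg3, which encodes SAP102, was higher per length than Dlg4, which encodes PSD-95, in 5 of 5 libraries, with a log2 ratio of Dlg4 to Dlg3 of -1.79 ± 0.16. In CPM, Dlg4 lay at 39.01, 44.02, 55.1, 37.8 and 38.9 and Dlg3 at 63.2, 70.4, 69.9, 57.1 and 65.6. The size of this ratio rested on the length assigned to the genes, and it was -0.95 with the longest transcript. Shank3 was lowest of the list, at 2.798, 5.12, 4.31, 1.56 and 1.38 CPM with 62.4% GC.

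Genes that neurons switch on with activity were present in every control (27 of 27) and summed to 2523, 2341, 3029, 2721 and 3438 CPM. Fos was the highest per length at 474 ± 97.7 TPM, with 369.7, 424, 398, 379.7 and 557 CPM, and Egr1 was found at 416, 362, 571, 464 and 528 CPM. Fos was highest in control 5, and Egr1 in control 3. Arc, whose product regulates AMPA receptor uptake, was found at 77.7, 76.7, 80.7, 46.8 and 69.7 CPM and Npas4, which depends on calcium entry, at 26.01, 37.7, 55.9, 17.2 and 25.99 CPM. Inhba, a subunit of activin, was the most variable of the list at 26.3, 28.7, 10.3, 18.9 and 89.02 CPM, with control 5 apart.

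Among nuclear protein-coding genes the highest levels per length were those of Gm10800, a satellite-like gene model, at 15906 ± 9505 TPM, and of cystatin C, Cst3, at 9938 ± 1733 TPM. Tmsb4x, which encodes the actin-binding thymosin beta 4, lay at 7407 ± 1444 TPM, the selenoprotein gene Selenow at 5474 ± 1882 TPM and the peptide-processing enzyme gene Cpe at 4473 ± 418 TPM. Cpe was the steadiest of these, with 4634, 4272, 4096, 4513 and 4804 CPM and a CV of 0.0633. Gm10800 was the most variable at 3924, 1155, 6789.9, 6157 and 2142 CPM, lowest in control 2. Mitochondrial genes took 6.07% to 7.96% of all counts, most of it in the ribosomal RNAs mt-Rnr2 and mt-Rnr1.

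Levels of genes with near-identical copies were uncertain. Only 0.146% of the 100-base stretches of mt-Co3 occurred in no transcript of another gene, 0.513% of those of mt-Co2 and 0.515% of those of mt-Atp6. These genes were counted at 26.5 to 32.4, 11.2 to 16.4 and 9.39 to 15.3 CPM, while mt-Nd1, with stretches all its own, was counted at 1840.3 to 2424 CPM. Gapdh, a glycolytic gene with a unique share of 46.9%, was counted at 13.99, 12.8, 10.4, 6.45 and 8.66 CPM, and Ppia, with 73.2%, at 18.6, 20.1, 19.5, 15.2 and 20.3 CPM. Counting did not use strand, so mt-Nd6 at 1055, 1094, 1053, 2323 and 1164 CPM cannot be told apart from transcripts of the opposite strand.

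Commonly used reference genes differed in steadiness. Pgk1 and Sdha, of glycolysis and the citric acid cycle, lay at 409, 379, 386, 382 and 379 CPM (CV 0.0328) and 361, 343, 333, 369 and 338 CPM (CV 0.0443), although Pgk1 had a unique share of 32.97%. Beta actin, Actb, ranged from 2984 to 6672 CPM (CV 0.35) and was highest in control 5. Over all genes with a mean of at least 10 CPM, 1355 (13.6%) had a CV under 0.1 and 193 (1.94%) a CV above 0.5. The 10 steadiest nuclear protein-coding genes had CVs from 0.0114 to 0.0222. Counting alone gave a CV of 0.0834 at 10 CPM and of 0.0264 at 100 CPM in the smallest library, so these were the low end of many genes and not genes without spread. They were Myl12b, Zfp354c, Mrpl21, Cd2ap, Glrx2, Bach2, Ubap2l, Ankrd17, Lgi1 and Ubxn4. Lgi1, a secreted protein of synapses mutated in epilepsy, was found at 45.5, 45.2, 47.5, 47.4 and 46.3 CPM.

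The 10 most variable nuclear protein-coding genes were immune genes, Y-linked genes and Inhba. Cxcl13, a chemokine, was found at 2.25, 4.42, 2.99, 61.4 and 7.16 CPM and had the largest CV, 1.64. Without the Y-linked Ddx3y, Eif2s3y and Kdm5d, it was followed by Mmp12, Spp1, Cxcl10, Ccl6, Inhba and Lyz2, with CVs from 1.38 to 0.822. In each of these 7 genes other than Cxcl10 a single library lay apart from the other 4, control 1 for Mmp12, Spp1, Ccl6 and Lyz2, control 4 for Cxcl13 and control 5 for Inhba.

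**Figure D5:**
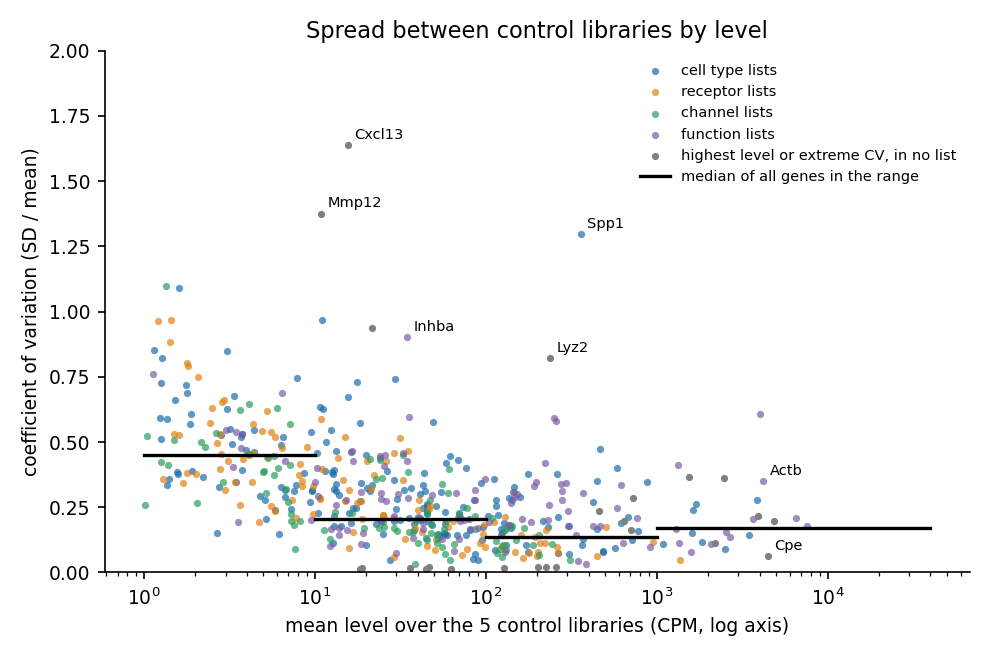
Coefficient of variation over the 5 control libraries (y axis) against mean level (x axis, CPM on a log axis) for the genes described that are not sex-linked, coloured by class, with black lines for the median of all genes in 4 ranges of level. The medians fall from 0.451 at 1 to 10 CPM to 0.134 at 100 to 1000 CPM, and Spp1, Lyz2 and Cxcl13 lie far above them.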

How the data were processed

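Counts of the 5 control libraries were used as the authors deposited them: whole numbers for 55291 gene symbols, with no normalization. Per the submitters' processing notes and the study's methods, reads were trimmed with cutadapt 3.5, mapped with STAR 2.7.8a to mm10 and counted without strand with featureCounts 2.0.1 on GENCODE M25 genes. Of the values from 1 to 20, between 63.0% and 73.9% were even in each library, so both mates of a pair were apparently counted. Libraries came from separate cultures, and no column of another series was present.

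CPM were computed from library totals (14371152 to 21092612 counts) and TPM from the merged exon length in GENCODE M21 on GRCm38, in which 53292 symbols were found. Merged exons include those of unused isoforms, which lowers the TPM of such genes. A gene was taken as detected at 1 CPM or more in each of the 5 libraries. Spread was given as SD, CV and the common dispersion of edgeR 4.0.16 (R 4.3.3), and its code was tested on simulated data. A single group holds no contrast, so no test between groups was run. Single libraries that stood apart were marked by Dixon's critical value for 5 values (0.71). DESeq2 1.42.0 and TMM served as alternatives.

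The 65 gene lists and the genes to describe were chosen with earlier results of these data known. Named are, among nuclear protein-coding genes, the 15 highest by mean TPM and, with a mean of at least 10 CPM, the 10 with the largest and the 10 with the smallest CV. Further named are all members of lists of up to 8 genes, and of longer lists the 4 highest and the 2 lowest by TPM and the 1 with the largest CV, as well as members of the 9 ratios. Some genes that fall under this rule, and 4 further planned ratios, are not reported here. Other list members appear where a list is described.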

Additional observations from a re-analysis of the deposited data

Results flagged for a closer look

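The 330 values looked at were gene levels, list sums, ratios and some measures of whole libraries. In 26 of them (7.88%) a single library had a gap to the nearest other that was large against the whole range of the 5. Chance alone marks about 1 in 20 groups of 5, but the values of 1 library are not independent of each other and some genes were named for a large CV, so this share is no test against chance. Control 1 held 6 of these values, control 2 held 4, control 3 held 4, control 4 held 7 and control 5 held 5.

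In control 1 the sum of the microglia activation list was 1737 CPM, against 465 to 568 CPM in the other 4. Spp1 stood at 1196 CPM, Lyz2 at 582, Ccl6 at 56.6 and Mmp12 at 37.1 CPM, each above the other libraries. Bcas1 stood at 86.4 CPM there, below the other libraries, which lay at 129 to 135 CPM. In control 2, Ccdc153 at 24.2 CPM, Enpp6 at 23.98 CPM and Pcp4 at 46.7 CPM stood high, and Gria2 at 1249 CPM stood low.

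In control 3, Gria1 stood high at 664 CPM, Scn8a at 184 CPM, Cck at 313 CPM and Mchr1 at 35.3 CPM. In control 4, Cxcl13 stood high at 61.4 CPM, against 2.25 to 7.16 CPM elsewhere, and mt-Nd6 at 2323 CPM. Low values in control 4 were those of Aif1 at 57.7 CPM, Kcnk2 at 26.1 CPM, Kctd16 at 5.74 CPM, Mpped1 at 73.0 CPM and the sum of the calmodulin list at 15171 CPM. In control 5, Fos stood high at 557 CPM, Gap43 at 968 CPM, Inhba at 89.0 CPM, the sum of the steroid receptor list at 304 CPM and that of the housekeeping list at 9734 CPM.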

How the results depend on the processing

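The number of detected genes stayed within 14714 to 16646 under every alternative run (0.5 CPM, 10 counts, thinning to the smallest total, leaving out a library). The median CV was 0.190 from a mean of 10 CPM and 0.760 with no minimum, and from 0.230 (without control 4) to 0.295 when 1 library was left out. The biological coefficient of variation was 0.240 from 10 CPM, 0.553 with no minimum, 0.324 with counts divided by 2, 0.263 as DESeq2 gene-wise dispersion, and from 0.315 (without control 4) to 0.409 (without control 1) when 1 library was left out. TMM moved the mean over the 5 libraries by no more than its SD for all 65 list sums and 416 gene levels. Its factors ran from 0.937 in control 4 to 1.084 in control 3 and nearly cancel in a mean, so this result could hardly differ. Values of single libraries were not compared between TMM and library totals.

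With mitochondrial genes taken out of the total, the sums were 5306 for the pan-neuronal, 15753 for the astrocyte and 1359 CPM for the microglia list. In TPM the sums were 2497 for the pan-neuronal list, 877 excitatory, 5957 inhibitory, 184 CA1, 27.2 dentate granule, 7989 astrocyte, 3214 oligodendrocyte and 1977 microglia. Most of the inhibitory sum came from Sst at 3195 TPM and Npy at 2053 TPM. With the length of the longest transcript, and then with no length scaling, the share of Gria2 was 46.8% and 62.7%, and that of Gabra5 30.4% and 17.0%. With the longest transcript the share of Scn2a was 43.4%.

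In the same order of settings, the log2 ratio was 0.25 and 0.14 for Slc12a5 to Slc12a2, -0.54 and -1.45 for Gria1 to Gria2, -0.92 and -0.65 for Camk2a to Camk2b and -0.95 and -0.61 for Dlg4 to Dlg3. With no length scaling it was -0.25 for Grin2b to Grin2a, 1.05 for Scn2a to Scn8a and 2.34 for Fibcd1 to Prox1. No ratio changed its direction in the mean over the 5 libraries, but some did in single libraries. With no length scaling, Grin2b was above Grin2a in control 2 and Slc12a5 below Slc12a2 in control 5. Wfs1 was then slightly below Grik4 in controls 2 and 3. No paired analysis was possible because a single group was described, with no comparison between groups. With 5 libraries of single cultures, a value of 1 culture cannot be told apart from one of its library, and levels of low genes are limited by counting.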

Other observations

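Ifit3 and Rsad2, which interferon induces, were highest in control 1, followed by control 2, which were the male libraries. Ifit3 was found at 102, 55.8, 31.2, 19.6 and 26.4 CPM and Rsad2, an antiviral enzyme, at 35.01, 20.04, 9.46, 6.68 and 6.53 CPM. Both were chosen after their values were seen, and a part of sex was not tested.

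Satellite-like gene models varied together and without regard to the GC order of the libraries. The 5 models found in the tables summed to 4450.1, 1313, 7688, 6989.9 and 2457 CPM, lowest in control 2 and highest in control 3. Gm10801 was found at 242, 74.6, 412, 404 and 154 CPM and Gm21738 at 245, 71.6, 421, 369 and 139 CPM, both with the same order of libraries as Gm10800 at the extremes.

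Twf1, St13 and Skil were lowest in control 3 and highest in control 4, followed by control 5. Twf1, which encodes an actin-binding protein, was found at 667, 346, 192, 1628 and 939 CPM, and the cochaperone gene St13 at 1308, 831, 453, 2735 and 1834 CPM. Skil, a regulator of TGF-beta signalling, was found at 699, 374, 339, 1979 and 1254 CPM. The receptor gene Notch2, lowest in control 2 and also highest in control 4, was found at 315, 223, 308, 1059 and 653 CPM. These 4 were chosen after their values were seen, and no cause was tested.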
